A study of Mus musculus with 2 samples.

Results

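The numbered Zfp genes are the mouse genes whose symbol is Zfp followed by digits alone. Members were the symbols of this form, without Zfp42 and Zfp36, that had a mean of at least 5 CPM over the 2 libraries. CPM is the number of UMIs (unique molecular identifiers, each marking 1 captured molecule) of a gene per 1000000 UMIs of the kept cells. Of 363 symbols of this form, 223 were members and 140 were under the minimum, among 32285 genes listed in all. Members were chosen by their measured mean level, so levels are given as a description. The members just inside the minimum were Zfp94, Zfp974 and Zfp959, each with a mean of 5.02 CPM. Just outside it were Zfp185 with 4.85 CPM, Zfp579 with 4.84 CPM and Zfp954 with 4.82 CPM.

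The cells were E14 mouse embryonic stem cells of the 129/Ola background, grown in serum with leukaemia inhibitory factor. One library came from cells given a control siRNA, named control, and the other from cells given an siRNA against Son, named sonKD. Son encodes a protein of nuclear speckles that takes part in splicing. Both groups went through lipid transfection, harvest 24 hours later, freezing, thawing and a sort on the dye 7-AAD before capture by their 3' ends on the 10x Genomics system. Each group held 1 library, so no difference below has a replicate check, no test was made, and what the siRNA against Son did cannot be told apart from any other difference between the 2 libraries. Intervals are at 95% and cover counting error only.

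Most zinc finger proteins of this kind carry C2H2 fingers, short folds in which a pair of cysteines and a pair of histidines hold a zinc ion. A row of fingers can read a DNA sequence, and some fingers bind RNA or proteins. Many of the genes also encode a KRAB box, which recruits the corepressor Trim28 (KAP1) and through it the histone methyltransferase Setdb1 and heterochromatin proteins. In mouse embryonic stem cells, KRAB zinc finger proteins are known for silencing endogenous retroviruses and for keeping DNA methylation at imprinted loci.

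The first stretch that matched the finger pattern is shown for 5 members, with the codons of its cysteines and histidines in capitals. It shows the fold that most members carry, and an earlier finger that the pattern missed would not be seen. Zfp57 protects imprints, Zfp106 had the highest level, Zfp462 had 33 fingers, and Zfp771 and Zfp687 had the lowest ratios between the libraries. All are coding sequence of GENCODE M21 transcripts on GRCm38, 5′ to 3′ on the coding strand.
Zfp57: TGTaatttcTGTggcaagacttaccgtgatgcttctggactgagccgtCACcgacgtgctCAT
Zfp106: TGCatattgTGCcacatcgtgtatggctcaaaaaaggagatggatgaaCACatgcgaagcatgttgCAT
Zfp462: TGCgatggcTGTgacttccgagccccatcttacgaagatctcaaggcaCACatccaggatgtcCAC
Zfp771: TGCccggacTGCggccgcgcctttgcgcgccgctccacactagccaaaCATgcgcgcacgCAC
Zfp687: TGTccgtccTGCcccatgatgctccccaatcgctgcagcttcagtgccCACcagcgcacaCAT
Counted with these codons included, the finger of Zfp771 shared 23 of 63 bases with that of Zfp57, and the finger of Zfp687 shared 30 of 63. The fingers of Zfp106 and Zfp462, at 69 and 66 bases, differ in length from that of Zfp57 and were not compared.

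The KRAB box of 4 neighbours on chromosome 4 is shown to let their likeness be seen, beside that of Zfp57 on chromosome 17. Capitals mark bases that differ from Zfp989.
Zfp989: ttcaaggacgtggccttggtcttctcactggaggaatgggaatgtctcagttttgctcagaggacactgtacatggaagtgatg
Zfp990: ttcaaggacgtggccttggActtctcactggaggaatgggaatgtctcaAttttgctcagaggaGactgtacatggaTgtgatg
Zfp987: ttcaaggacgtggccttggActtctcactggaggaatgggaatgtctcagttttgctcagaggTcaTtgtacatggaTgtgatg
Zfp988: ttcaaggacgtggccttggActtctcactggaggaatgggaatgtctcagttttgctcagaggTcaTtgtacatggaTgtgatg
Zfp57: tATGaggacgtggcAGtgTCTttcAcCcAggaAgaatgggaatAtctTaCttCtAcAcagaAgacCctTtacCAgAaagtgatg
Zfp987 and Zfp988 were identical over all 84 bases, and each of Zfp990, Zfp987 and Zfp988 shared 80 of 84 bases with Zfp989. Zfp57 shared 60 of 84 bases with Zfp989.

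After the filter on cells, 4978 control and 2731 sonKD cells remained, with 40902904 and 32032551 UMIs. The median cell held 7737.5 UMIs in control and 11612 in sonKD, and 2 cell barcodes were kept in both libraries. Son itself was at 169 and 106 CPM in control and sonKD, a log2 ratio of -0.67 (-0.73 to -0.61). All 6 pluripotency markers had UMIs in both libraries and summed to 7381 CPM in control and 8167 CPM in sonKD. Of 6 feeder fibroblast markers, Col3a1, Postn and Lum were at 0 in both libraries, and the list summed to 3.15 and 3.65 CPM. The lists for primitive endoderm and mesoderm each summed to less than 4 CPM in both libraries, neuroectoderm to 11.4 and 9.55 CPM, and 4 of 5 markers of 2C-like cells were at 0 in both.

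The members held 6519 CPM in control and 5987 CPM in sonKD. Most were scarce: 79 had a mean of 5 to under 10 CPM and 69 a mean of 10 to under 20 CPM. The 12 members with 100 CPM or more held 30.0% of the summed CPM. Capture by the 3' end was taken to count about 1 tag a molecule, so CPM was given no length term. Whether intronic reads were counted is not given in the sources used here, so long genes may hold extra tags. Levels are set side by side on the CPM scale alone, with that limit.

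Zfp106, an RNA-binding protein, was highest, with a control level of 387 CPM and a sonKD level of 349 CPM. Zfp704, a transcription factor, followed at 200 and 189 CPM. Zfp706, a small protein linked to the exit from self-renewal, was at 161 and 176 CPM. Zfp106 and Zfp704 came first and second in both libraries. Zfp292 was at 165 and 144 CPM, Zfp638, an RNA-binding protein that takes part in silencing of unintegrated retroviral DNA, at 152 and 134 CPM, and Zfp57 at 154 and 127 CPM. Zfp428 was at 144 and 148 CPM in control and sonKD, and Zfp462, which acts in heterochromatin, at 127 and 111 CPM. Of these 8, Zfp706 and Zfp428 were higher in sonKD, with log2 ratios of 0.14 (0.08 to 0.19) and 0.05 (-0.01 to 0.10). Zfp428 was at -0.28 in cells under 8000 UMIs, and Zfp704, at -0.08, was just above 0 with other scalings (0.0068 with TMM). Of the last 500 bases of Zfp706, 38.6% also occur in transcripts of other genes, Zfp575 among them, so its count may be shared.

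**Figure D1:**
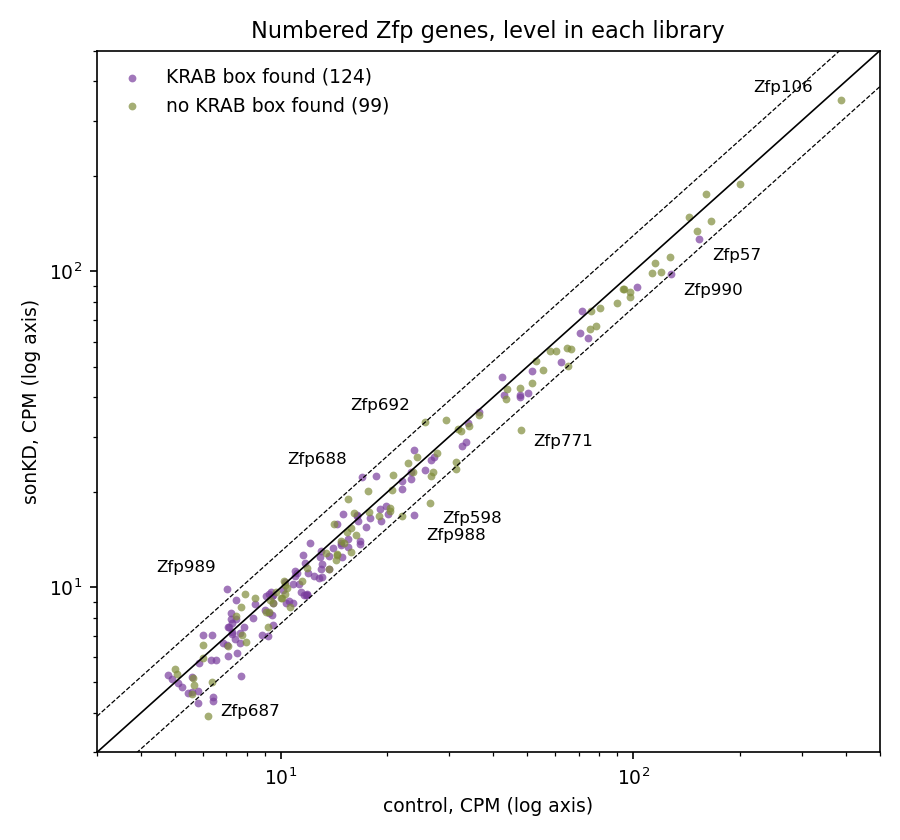
Level of each of the 223 members in control (horizontal) and sonKD (vertical), in CPM on log axes, coloured by whether a KRAB box was found. The solid line marks equal levels and the dashed lines 1.3-fold, which 12 members pass on the lower side and 2 on the higher side.

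Between the libraries the members lay where genes as a whole lay. Their median log2 ratio of sonKD over control was -0.11, and over all 9771 genes that reached the same minimum it was also -0.11. The summed level had a log2 ratio of -0.12 (-0.13 to -0.11), with 172 members (77.1%) below 0 and 51 above, beside 73.7% of all genes below 0. From the 5th to the 95th percentile the members' ratios ran from -0.38 to 0.19, and those of all genes from -0.42 to 0.26. At least 1.3-fold lower in sonKD were 12 members, or 5.38%, against 6.84% of all genes. At least 1.3-fold higher were 2 members, or 0.897%, against 2.66% of all genes. At this setting both shares were under those of genes as a whole, the one on the lower side by little. In cells under 8000 UMIs 8.97% of members were lower and 15.7% higher, against 18.5% and 14.1% of all genes. With TMM scaling the same counts were 7 lower and 5 higher, against 3.36% and 4.38% of all genes, so the split between the directions depended on the scaling. By level, 6 of the 79 members under 10 CPM were at least 1.3-fold lower and 1 was higher, against 10.7% and 2.75% of all genes in that range. From 10 to under 20 CPM 1 of 69 was lower and 1 higher, against 8.73% and 1.41%, and from 20 CPM 5 of 75 were lower and 0 higher, against 5.08% and 3.07%.

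The direction of the summed level also differed with the depth of the cells compared. In cells with 2500 to under 4000 UMIs the members' summed level was higher in sonKD, with a log2 ratio of 0.19 (0.12 to 0.25). It was -0.02 (-0.04 to 0.01) in cells with 4000 to under 8000 UMIs, -0.23 (-0.24 to -0.22) with 8000 to under 16000, and 0.01 (-0.02 to 0.03) with 16000 or more. Members were below genes as a whole in the third band alone, where their median was -0.21 beside -0.18 for all genes. That band held 23177307 of the sonKD UMIs. It gave 41 members, or 18.4%, at least 1.3-fold lower and 2 higher, against 18.2% and 3.43% of all genes. In the shallowest band, which held 344074 sonKD UMIs from 109 cells, 34 members were lower and 95 higher, against 18.1% and 33.7% of all genes. From 4000 UMIs 33 were lower and 33 higher, against 23.7% and 13.3%, and from 16000 UMIs 21 were lower and 34 higher, against 12.1% and 9.22%. In the same order of bands the all-gene medians were 0.13, -0.10, -0.18 and -0.04. In all, 26 members had a ratio below 0 in all 4 bands and 12 had a ratio above 0 in all 4. No share of all genes was set beside these 2 counts, so they are not read as particular to the members. The part of cell depth in the ratios was not tested.

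**Figure D2:**
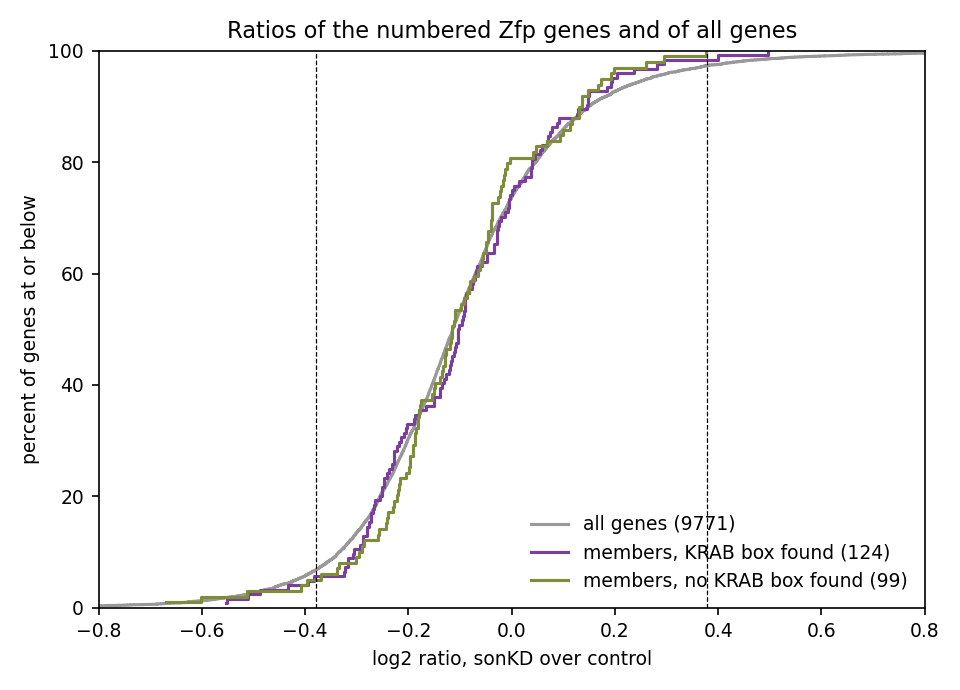
Cumulative share of genes (vertical, percent) at or below each log2 ratio of sonKD over control (horizontal). The curves are for all 9771 genes and for members in which a KRAB box was found or not found. The dashed lines mark 1.3-fold, and the 3 curves cross -0.11 near their middle.

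Zfp771 had the largest difference in size among members above 20 CPM. It was at 47.9 and 31.6 CPM in control and sonKD, a log2 ratio of -0.60 (-0.71 to -0.49). Its ratio was below 0 in all 4 depth bands, at -1.31, -0.43, -0.64 and -0.49. Zfp598, the ubiquitin ligase that marks collided ribosomes, was at 26.5 and 18.5 CPM, a log2 ratio of -0.51 (-0.66 to -0.37). It too was below 0 in every band, at -0.23, -0.69, -0.64 and -0.64. Both genes were thus lower in sonKD at each depth, though in the shallowest band the interval of Zfp598 included 0.

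Zfp687, a partner of Zfp592 and Zmynd8 in a chromatin complex, had the lowest ratio of all members at -0.67 (-0.99 to -0.36). It rested on 254 UMIs in control and 125 in sonKD, or 6.21 and 3.90 CPM, and it overlaps Pi4kb on the opposite strand. The KRAB genes Zfp472 at -0.55, Zfp111 at -0.55 and Zfp758 at -0.43 had under 8 CPM in each library. Zfp987 at -0.51 and Zfp988 at -0.49 belong to the chromosome 4 cluster described further on. The remaining members past 1.3-fold were Zfp367 at -0.41, Zfp62 at -0.40, Zfp65 at -0.39 and Zfp990 at -0.38. Zfp367, Zfp62 and Zfp65 are named after their values were seen. Zfp758 and Zfp987 had ratios above 0 in cells under 8000 UMIs, at 0.27 and 0.22.

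On the other side, Zfp989 was at 7.02 CPM in the control and 9.90 CPM in the sonKD library, a log2 ratio of 0.50 (0.26 to 0.73). Zfp688, with a KRAB box and 2 fingers, was at 17.0 and 22.4 CPM, a log2 ratio of 0.40 (0.25 to 0.55). Zfp692 was at 25.6 and 33.3 CPM, a log2 ratio of 0.38 (0.25 to 0.50) that fell just short of 1.3-fold. All 3 were above 0 in each depth band, though not with every interval. For Zfp692 the bands gave 1.63, 0.36, 0.35 and 0.55, and for Zfp688 they gave 0.35, 1.07, 0.49 and 0.13. The rest of the 8 highest ratios were those of Zfp408 at 0.29, Zfp932 at 0.29, Zfp560 at 0.28, Zfp580 at 0.26 and Zfp819 at 0.24. The interval of Zfp819 reached from -0.03 to 0.50.

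Genes that silence retroelements or guard imprints differed among themselves. Of 8 listed, 6 were members, with none past 1.3-fold and a median log2 ratio of -0.02 that turned to 0.07 with TMM scaling. Zfp57, which keeps methylation at imprinted loci, had a ratio of -0.28 (-0.34 to -0.22). Zfp568, which represses a placental transcript of Igf2, was at 102 and 89.6 CPM in control and sonKD, a ratio of -0.19 (-0.26 to -0.12). The ratio of Zfp568 was 0.20 in cells under 8000 UMIs. Zfp445, which also protects imprints, was at 33.9 and 33.1 CPM, and Zfp809, which silences retroviruses through their primer binding site, at 23.3 and 23.1 CPM. The intervals of Zfp445 and Zfp809 both included 0. Zfp932 and Zfp819, linked to endogenous retroviruses, were the 2 above 0, and 60.3% of the end of Zfp932 occurs in transcripts of other genes, Gm15446 among them. Zfp708 had 2 UMIs in control and 0 in sonKD, and Zfp92 had 0 and 1.

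All 10 listed regulators studied in stem cells were members, 9 had a ratio below 0, none passed 1.3-fold, and the median was -0.14 beside -0.11 for all genes. Of all genes 73.7% were below 0. With TMM scaling 8 of the 10 were below 0, against 55.7% of all genes. In cells under 8000 UMIs 5 were below 0 and 2 at least 1.3-fold lower, against 55.8% and 18.5% of all genes, and with 8000 to under 16000 UMIs 9 and 2, against 76.9% and 18.2%. Zfp219, a partner of Oct4 at the Nanog gene, was at 31.4 and 24.9 CPM in control and sonKD, a ratio of -0.33 (-0.46 to -0.21). Zfp281, which acts in the exit from naive pluripotency, was at 51.5 and 44.3 CPM, a ratio of -0.22 (-0.32 to -0.12). Zfp143, a promoter-binding factor, had a ratio of -0.15, and Zfp148, a relative of Zfp281, a ratio of -0.18. In cells under 8000 UMIs Zfp281 and Zfp148 were near 0, at 0.0044 and 0.010, and Zfp143 was at 0.25.

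The 10 genes for RNA and ribosome factors all had a ratio below 0, as did 73.7% of all genes, and their median was -0.13. Zfp598 was the 1 past 1.3-fold, or 10% of the list beside 6.84% of all genes. With TMM scaling 7 were below 0, against 55.7% of all genes. In cells under 8000 UMIs 8 were below 0, 3 were at least 1.3-fold lower and the median was -0.23, against 55.8%, 18.5% and -0.05 for all genes. With 8000 to under 16000 UMIs 9 were below 0, 1 was lower and the median was -0.22, against 76.9%, 18.2% and -0.18. Zfp622, which acts in maturation of the large ribosomal subunit, was at 97.8 and 82.8 CPM, a ratio of -0.24 (-0.31 to -0.17). Zfp593, from the same process, was at 75.6 and 74.8 CPM, a ratio of -0.02 (-0.09 to 0.06). Zfp830 and Zfp326, which take part in splicing or its coupling to transcription, were close to equal as well, at -0.03 and -0.05. Of 14 listed cofactors of chromatin, ubiquitin or SUMO, 12 were members, all 12 had a ratio below 0 and the median was -0.18. Zfp687 was the 1 past 1.3-fold, or 8.33% beside 6.84% of all genes. With TMM scaling 10 were below 0, against 55.7% of all genes, and in cells under 8000 UMIs 6, against 55.8%. In cells with 8000 to under 16000 UMIs all 12 were below 0 and 5 were at least 1.3-fold lower, against 76.9% and 18.2% of all genes. Zfp532 had a ratio of -0.26, Zfp609, which binds cohesin loader and Integrator, -0.23, and Zfp292 -0.20, while Zfp451, a SUMO ligase, had -0.05.

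**Figure D3:**
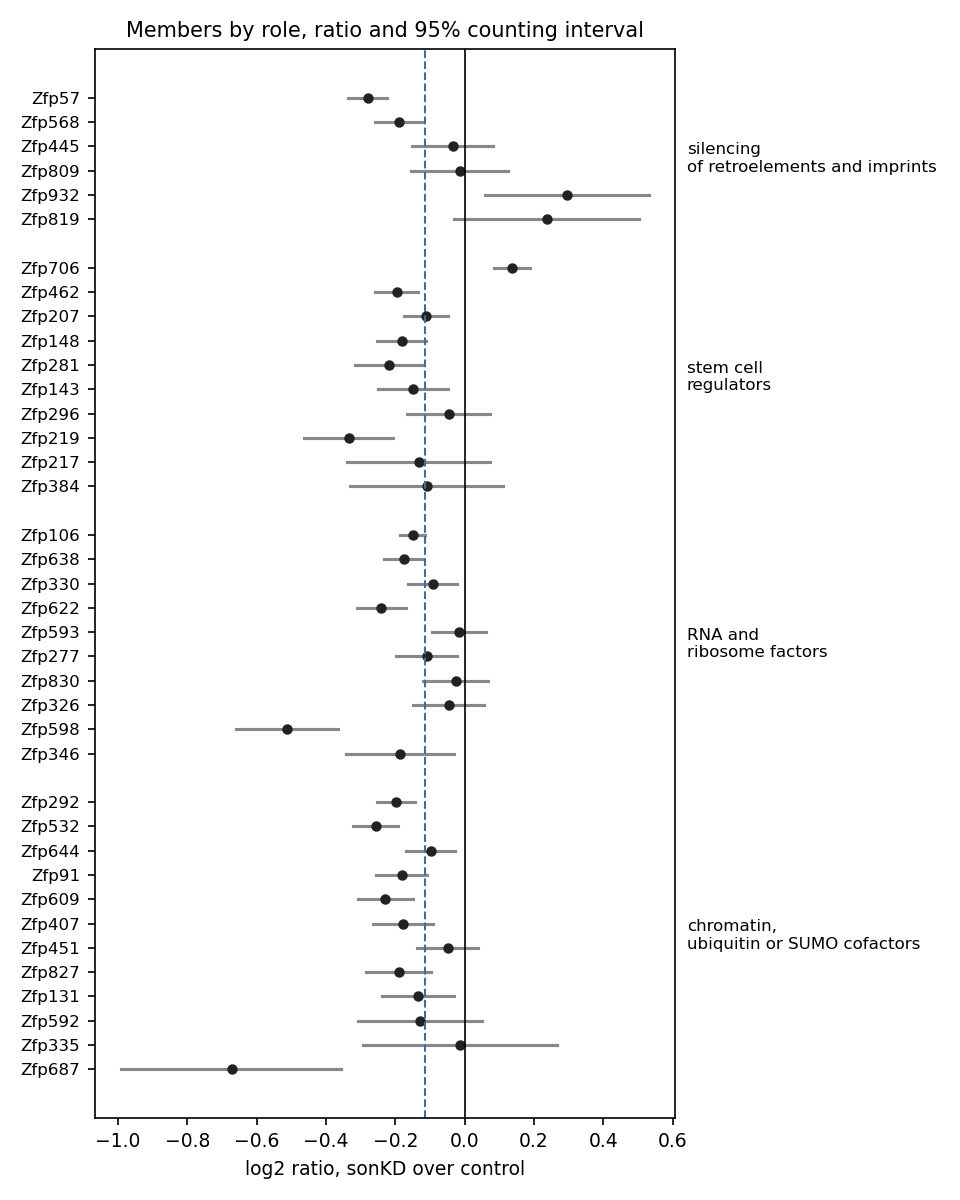
Log2 ratio of sonKD over control (horizontal) for the 38 members of the 4 role lists, with 95% counting intervals, ordered by mean level within each list. The solid line is 0 and the dashed line the median of all genes at -0.11; most points lie between -0.3 and 0.

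Among genes that act with KRAB zinc finger proteins, those with the largest differences were lower in sonKD. Of 26 listed, 25 had at least 5 CPM, with a median log2 ratio of -0.15. At least 1.3-fold lower were 4, or 16.0%, beside 6.84% of all genes, and none was 1.3-fold higher. With TMM scaling 3 were lower, against 3.36% of all genes, and in cells under 8000 UMIs 7, against 18.5% of all genes. In cells with 8000 to under 16000 UMIs 4 were lower, or 16.0%, which was under the 18.2% of all genes. Ehmt2, the histone methyltransferase G9a, was at 51.4 and 28.1 CPM in control and sonKD, a ratio of -0.87 (-0.98 to -0.76). Uhrf1, which brings Dnmt1 to replicated DNA, had a ratio of -0.59 (-0.65 to -0.53), and the maintenance methyltransferase Dnmt1 had -0.50 (-0.56 to -0.45). Setdb1 was at 94.3 and 72.1 CPM, a ratio of -0.39 (-0.46 to -0.31). Trim28 was at 347 and 289 CPM, a ratio of -0.26 (-0.30 to -0.22). Mphosph8, of the HUSH complex, and the heterochromatin protein gene Cbx1 were above 0, at 0.15 and 0.11.

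By sequence pattern, a KRAB box was found in 124 members and not found in 99, some of which may carry a box that the patterns missed. Those with the box were scarcer, with a median of 11.0 CPM against 19.1 CPM, and had more fingers, with a median of 12 against 7. Their median ratios were -0.10 and -0.12, and 0.14 and 0.034 in cells under 8000 UMIs. At least 1.3-fold lower were 7 (5.65%) and 5 (5.05%), against 6.84% of all genes, and higher were 2 (1.61%) and 0, against 2.66%. The number of fingers ran from 0 in Zfp330 and Zfp365 to 36 in Zfp142. Spearman's rho between fingers and log2 ratio was 0.02 across the 223 members, which share 2 libraries and are not independent replicates. For the number of exons rho was -0.17 across members and -0.27 across 9768 genes. Members had a median of 5 exons and all genes a median of 9.

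Members were most numerous on chromosome 7 with 47, chromosome 17 with 30 and chromosome 4 with 19. Clusters here are runs of numbered Zfp genes, members or not, with starts at most 500 kb apart and at least 8 members. They held 48 of the 223 members. The cluster at chr4:145510759-147848366 held 18 numbered Zfp genes, of which 15 were members, all with a KRAB box. Together these 15 held 485 CPM in the control and 414 CPM in the sonKD library, a log2 ratio of -0.23 (-0.26 to -0.19). Of them 12 (80.0%) were below 0, against 73.7% of all genes. At least 1.3-fold lower were 3 (20%) and higher 1 (6.67%), against 6.84% and 2.66% of all genes. In cells under 8000 UMIs these shares were 6.67% lower and 20% higher, against 18.5% and 14.1% of all genes. In cells with 8000 to under 16000 UMIs they were 33.3% and 6.67%, against 18.2% and 3.43%. In 10 of the 15, at least 20% of the last 500 bases also occurs in transcripts of other genes, so counts within the cluster may be exchanged. Over all kept cells the 3 lower and the 1 higher member were all among these 10. Of the 5 other members 0 were past 1.3-fold in either direction. How reads that match several genes were assigned is not given in the sources used here. The summed ratio was -0.21 over all 18 genes, where exchange among them has no effect but exchange with genes outside the 18, such as Gm8935 and Rex2, still could, and -0.20 over the 5 members with under 20% shared. The summed ratio of the 15 members was -0.06 in cells under 8000 UMIs, -0.36 in cells with 8000 to under 16000 UMIs, and -0.14 with TMM scaling.

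Zfp990, at chr4:145510759-145539188, was the most abundant of the cluster, with 128 and 97.9 CPM in control and sonKD, a ratio of -0.38 (-0.45 to -0.32). Its ratio was 0.69 in the shallowest cells and -0.45, -0.48 and -0.17 in the deeper bands. Zfp979, whose end is shared with no other gene, was at 74.1 and 61.5 CPM, a ratio of -0.27 (-0.35 to -0.19). Zfp992 and Zfp933, also with unshared ends, had ratios of -0.02 and 0.05 with intervals that included 0. Zfp979 overlaps Gm13155 on the same strand, and 50 of the 223 members overlap another gene in this way. What such overlap did to the counts was not tested. Zfp989 went the other way from its relatives Zfp987 and Zfp988, and 70.3%, 85.6% and 44.1% of their ends are shared. The 3 numbered genes of the cluster under 5 CPM, Zfp986, Zfp993 and Zfp991, each with at least 81.1% of the end shared, were also above 0, at 0.69, 0.67 and 0.25.

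**Figure D4:**
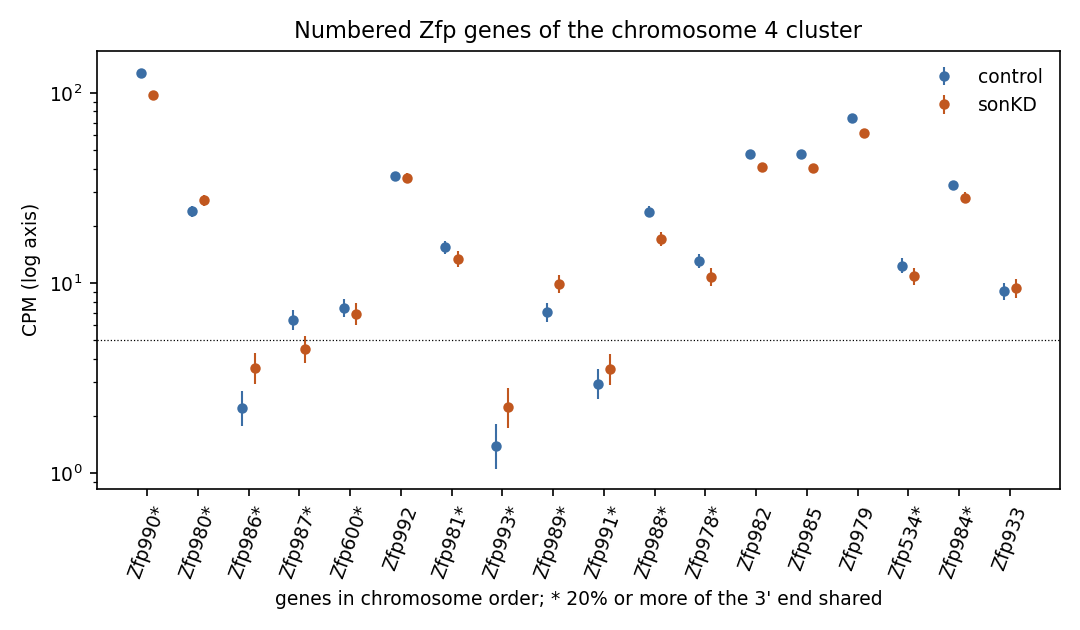
Level in CPM (log axis) of the 18 numbered Zfp genes of the chromosome 4 cluster in chromosome order, in control and sonKD, with 95% Poisson intervals. Asterisks mark genes with at least 20% of the 3' end shared, and the dotted line is 5 CPM; Zfp989, Zfp980, Zfp933 and the 3 genes under the line are higher in sonKD.

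The other clusters were closer to genes as a whole or thinner. At chr17:21008903-23599487, 16 members had a median ratio of -0.09. At chr17:32765496-33631779, 9 members, Zfp472 among them, had a median of -0.25 and summed to 94.4 CPM in control and 82.5 CPM in sonKD. At chr7:29768552-30169750, 8 members, Zfp568 among them, had a median of -0.05.

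Single members were seen in few cells. After each cell was thinned to 2500 UMIs, the median member had a UMI in 3.50% of control and 3.26% of sonKD cells, and without thinning in 10.4% and 13.4%. Zfp106 had a UMI in 60.0% (58.7 to 61.4, exact Clopper-Pearson) of thinned control cells and 55.6% (53.7 to 57.5) of thinned sonKD cells. Zfp990 had the largest loss, from 27.2% (25.9 to 28.4) to 20.8% (19.3 to 22.4), and Zfp692 the largest gain, from 6.25% (5.59 to 6.96) to 8.60% (7.58 to 9.72). Free RNA adds to such shares, and no cell type that lacks the genes was at hand: in droplets with 100 to 500 UMIs Zfp106 was at 171 and 147 CPM, Zfp990 at 58.3 and 34.2 CPM and Zfp692 at 4.68 and 3.54 CPM. Every thinned cell held at least 1 UMI of a member. The median thinned cell held 14 different members in control and 13 in sonKD. The summed member UMIs per thinned cell had a variance over mean of 1.96 in control and 1.80 in sonKD, where counting alone gives 1. For single members this measure says little, since at such low means it lies near 1 whatever the spread between cells. Zfp365, at 1.39 and 1.25, and Zfp704, at 1.24 and 1.21, were the 2 members above 1.2 in both libraries.

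The members' share of UMIs depended more on the class of barcode than on the library. It was 0.652% (0.649 to 0.654) in kept control cells and 0.599% (0.596 to 0.601) in kept sonKD cells. Barcodes that passed the UMI and gene minimum but exceeded 10% mitochondrial UMIs had 0.905% (0.892 to 0.919) in control and 0.794% (0.785 to 0.804) in sonKD. Droplets with 100 to 500 UMIs had 0.283% and 0.238%. Relative to kept cells of the same library, 145 members were at least 1.3-fold higher in the mitochondria-rich barcodes of control, or 65.0%, against 38.6% of all genes. In sonKD 131 members were, or 58.7%, against 32.1%. At least 1.3-fold lower were 12 members in control and 9 in sonKD, against 20.1% and 17.7% of all genes. The median member ratio was 0.54 in control and 0.47 in sonKD, and that of all genes 0.20 and 0.15. This holds although mitochondrial UMIs took 15.1% and 17.9% of these barcodes and 3.82% and 4.19% of kept cells.

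Zfp202 had the largest such ratio in control, at 7.26 CPM in kept cells and 26.8 CPM in mitochondria-rich barcodes. In sonKD it was at 7.24 and 30.7 CPM. Zfp580 had the lowest in control, at 7.92 CPM in kept cells and 3.54 CPM in mitochondria-rich barcodes. Zfp202 is named after its values were seen. Malat1, a nuclear RNA, moved the same way, from 2634 to 13157 CPM in control and from 2192 to 8960 CPM in sonKD, and its part in the result was not tested. In droplets 206 control and 205 sonKD members were at least 1.3-fold lower than in kept cells, or 92.4% and 91.9%, against 71.4% and 74.3% of all genes. Higher were 1 and 0 members, against 7.4% and 6.06%. The 1 was Zfp593, at 101 CPM in control droplets beside 75.6 CPM in kept control cells. Zfp706 was also higher in droplets, at 196 and 192 CPM beside 161 and 176 CPM in kept cells, but by less than 1.3-fold.

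**Figure D5:**
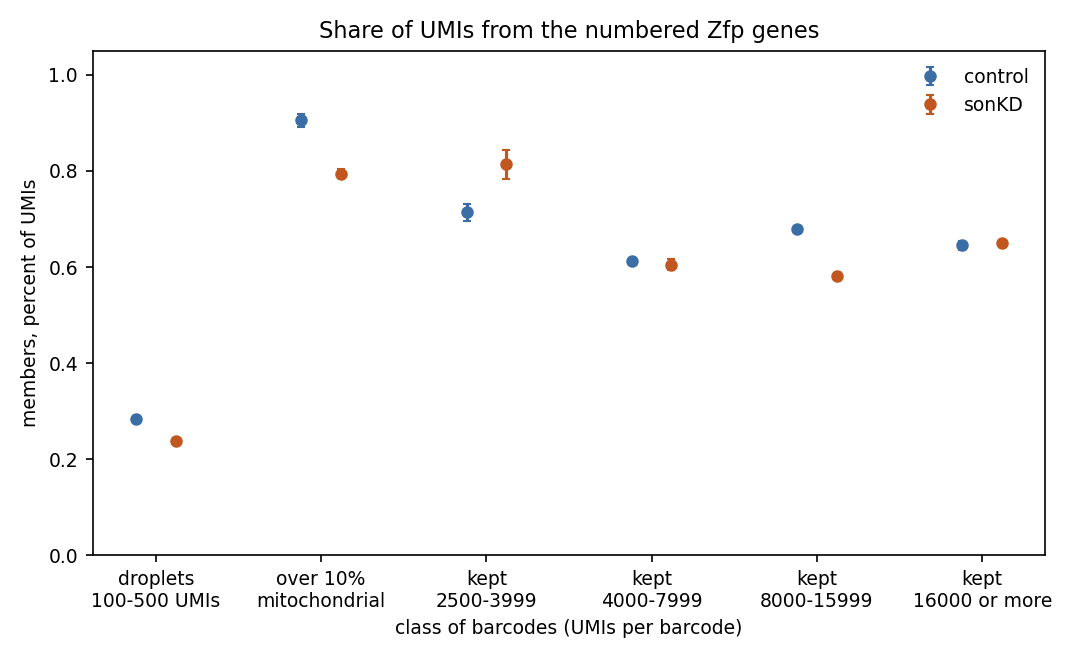
Share of UMIs from the 223 members (vertical, percent, from 0) in droplets, in mitochondria-rich barcodes and in kept cells by depth, with exact binomial intervals. Mitochondria-rich barcodes stand at 0.905% and 0.794%, droplets below 0.3%, and the libraries trade order between the bands of kept cells.

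Of the 140 symbols under the minimum, 127 had UMIs in both libraries and 8 had none in either. The rule leaves out Zfp42 and Zfp36. Zfp42 (Rex1), a marker of naive pluripotency with 4 C2H2 fingers, was at 644 and 621 CPM in control and sonKD, a log2 ratio of -0.05 (-0.08 to -0.03), above every member. Zfp36, which binds AU-rich RNA and is no C2H2 protein, had 53 and 52 UMIs.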

How the data were processed

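Per the file headers, the authors deposited raw UMI counts per gene and barcode, made with Cell Ranger 7.1.0. Per the submitters' processing notes the build was mm10; the annotation release and whether intronic reads were counted are not given in the sources used here. The labels name different NextSeq models. The files listed 1408944 barcodes with 71046373 UMIs for control and 1400093 with 60352438 for sonKD.

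Barcodes with at least 2500 UMIs, 1000 genes and at most 10% mitochondrial UMIs were kept. Scrublet (scanpy 1.11.5) called 0.0603% and 0.0366% of cells doublets, too few for a working call, so no doublets were removed; an alternative removed the highest scores at 0.8% per 1000 cells. Counts were summed per library and divided by the library sum. A count under 3 was set to 3 in ratios. Intervals are exact: Poisson for levels, Clopper-Pearson for shares, conditional binomial for ratios. edgeR 4.0.16 gave TMM factors only. The ratio step was tested on simulated data.

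Fingers (cysteines 2 to 4 residues apart, then 12, histidines 3 to 5 apart) and KRAB boxes were found by pattern in translated GENCODE M21 coding sequences, in place of the RefSeq proteins first planned, so both depend on the patterns. A shared end means 50-base windows of the last 500 bases found in other genes' transcripts. Clusters are runs of numbered Zfp genes, members or not, with starts at most 500 kb apart, that hold at least 8 members.

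The members and lists were chosen with earlier results of these data known. Named genes are the 8 highest levels, the 8 highest and 8 lowest ratios, the genes at the minimum, Zfp42, Zfp36 and the role lists; cluster genes were chosen by position, and Zfp62, Zfp65, Zfp142, Zfp202, Zfp365 and Zfp367 after their values were seen.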

Additional observations from a re-analysis of the deposited data

How the results depend on the processing

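No paired analysis was possible because each group held 1 library, and for the same reason no replicate could be left out. Alternatives on cell depth, on shared 3' ends and on the chromosome 4 cluster were added after seeing the data. With TMM factors, median-of-ratios factors and a library sum without mitochondrial and ribosomal protein genes, the median of the members was -0.018, -0.023 and -0.030, their summed ratio -0.033, -0.038 and -0.048, the KRAB median -0.013, -0.018 and -0.023, the median without KRAB -0.026, -0.031 and -0.040, and the cluster sum -0.14, -0.14 and -0.15. The same scalings moved the all-gene median by 0.090, 0.085 and 0.075, so the members stayed within 0.01 of it. Lower members numbered 7 with TMM and 7 with median-of-ratios factors, 6 at 10 CPM, 37 with no minimum and 2 at 1.5-fold. Higher members numbered 5 under each of the 3 scalings, against 4.38%, 4.28% and 4.22% of all genes. They numbered 1 at no more than 5% mitochondrial UMIs, against 2.63%, and 5 with the mean of CPM per cell, against 2.90%. At 10 CPM they numbered 1, against 2.64%, and with no minimum 12, against 11.0%. They numbered 0 at 1.5-fold, against 1.00%, and 1 without shared ends, against 2.66%. The summed ratio was -0.11 with the mean of CPM per cell. There were 144 members at 10 CPM and 350 with no minimum. With the library sum without mitochondrial and ribosomal protein genes the set was chosen again and held 255 members, among 10417 genes. In cells under 8000 UMIs, with the 223 members kept, the median was 0.062, the summed ratio 0.041, the KRAB median 0.14, the median without KRAB 0.034, the cluster sum -0.064, and 20 members (8.97%) were lower and 35 (15.7%) higher, against 18.5% and 14.1% of all genes. When the members were chosen again in those cells, by thinner counts, these were 0.11, 0.048, 0.15 and 0.040. Then 40 were higher, against 16.1% of all genes. In cells with 8000 to under 16000 UMIs the median was -0.21, the summed ratio -0.23, the KRAB median -0.22, the median without KRAB -0.21 and the cluster sum -0.36. At that depth 41 members were lower, against 18.2% of all genes. The cause of the difference with depth was not tested. The median difference in the share of cells with a UMI was -0.23 points, -0.40 at 4000 UMIs, where 268 control and 109 sonKD cells were too shallow, and 3.09 without thinning, where sonKD cells were deeper. Zfp704 was at 0.0068 with TMM, 0.0017 with median-of-ratios factors and 0.031 in cells under 8000 UMIs. In those cells Zfp292 was at 0.011, Zfp987 at 0.22, Zfp758 at 0.27, Zfp568 at 0.20, Zfp281 at 0.0044, Zfp143 at 0.25, Zfp148 at 0.010, Zfp407 at 0.20, Zfp644 at 0.13 and Zfp609 at 0.27. Of 591 values of 55 named members over all settings, 475 stayed within their counting interval, 103 moved outside it and 13 changed sign with an interval that excluded 0. In all, 55 had the other sign, and the largest move was 0.73. Depth limits members under 10 CPM most, and no setting replaces a second library.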
